A study of Mus musculus with 4 samples.

Results

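The spermatogonial differentiation genes described here were 10 genes chosen by name as regulators or markers of the step from undifferentiated to differentiating spermatogonia, of 18419 genes in the table. They were the receptor gene Kit, the retinoic acid-responsive genes Stra8, Rhox13 and Crabp1, the helix-loop-helix factor genes Sohlh1, Sohlh2 and Neurog3, the DM-domain factor genes Dmrt1 and Dmrtb1, and Uchl1. All 10 were listed in the table. They were chosen as named genes and not by a threshold on their values.

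Testis cells of male ICR mice, an outbred stock, were profiled by droplet single-cell RNA sequencing, and the study asked how busulfan and alginate oligosaccharides (AOS) change spermatogenesis. Busulfan is an alkylating drug that kills dividing germ cells, and AOS are short sugars cut from the alginate of brown seaweed. The 4 libraries were A0 (control, AOS at 0 mg/kg), A10 (AOS at 10 mg/kg body weight), B0 (busulfan with water) and BA10 (busulfan with AOS at 10 mg/kg). Mice of the busulfan groups received 40 mg/kg once at 3 weeks of age, with AOS or water dosing from the next day, for 5 weeks by the study's results text and 2 weeks by its methods. Each group was 1 library made from 6 pooled mice, so animals cannot be told apart, no test between groups was possible, and every interval below covers counting error only.

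Spermatogonia are the diploid germ cells at the base of the seminiferous tubule. A small undifferentiated pool renews itself, and its progeny commit to differentiation when retinoic acid reaches them. They then gain the receptor KIT, divide several times and, after a further pulse of retinoic acid that induces Stra8, enter meiosis as spermatocytes and later become haploid spermatids. SOHLH1 and SOHLH2 promote Kit expression in this step, DMRT1 restrains Stra8 until the cell is ready, and DMRTB1 (also called DMRT6) helps to close the spermatogonial programme. KIT is also known outside the germ line, for example on Leydig cells, the androgen-producing cells between the tubules.

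On GRCm38 the members lie on 9 chromosomes. GENCODE M21 placed Kit at chr5:75574916-75656722 and Uchl1 at chr5:66676091-66687234, both on the plus strand. Stra8 lies at chr6:34920163-34939344, Sohlh1 at chr2:25842995-25847248 (minus strand), Sohlh2 at chr3:55182028-55209957 and Dmrt1 at chr19:25505618-25604329. Dmrtb1 lies at chr4:107676290-107684230 (minus strand), Rhox13 at chrX:38121219-38129967, Crabp1 at chr9:54764748-54773110 and Neurog3 at chr10:62133090-62134763. No member shared its strand with an overlapping gene, but Uchl1os is antisense to Uchl1 and Fam241b lies on the strand opposite Neurog3. Whether reads were counted by strand is not given in the sources used here, so reads of those pairs may not be separated.

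Promoters were read from RefSeq (GRCm38.p6) for 9 of 10 members, as the 250 bases before the annotated start; Dmrt1 was not matched. They were searched on both strands for the general E-box CANNTG, bound by helix-loop-helix factors, the E-box form CACGTG, the nuclear receptor half-site AGGTCA, which retinoic acid receptors bind in pairs, and ACATTGT, the core of the motif that DM-domain factors bind. CACGTG is counted within CANNTG as well. Among 32851 promoters of the same length, 66.2% held CANNTG, 6.02% CACGTG, 14.0% AGGTCA and 2.56% ACATTGT. A match describes letters only. Sohlh1 and Crabp1 are printed because Sohlh1 was the member with CACGTG in this window, in 3 copies and with 1 overlapping AGGTCA, while Crabp1, the member whose level followed Stra8 most closely over cell clusters, held none of the 4 motifs. Capitals mark the form CACGTG, the half-site AGGTCA and the core ACATTGT or its reverse complement, and sequences run 5′ to 3′ on the gene's strand.
Sohlh1, chr2:25847249-25847498, minus strand: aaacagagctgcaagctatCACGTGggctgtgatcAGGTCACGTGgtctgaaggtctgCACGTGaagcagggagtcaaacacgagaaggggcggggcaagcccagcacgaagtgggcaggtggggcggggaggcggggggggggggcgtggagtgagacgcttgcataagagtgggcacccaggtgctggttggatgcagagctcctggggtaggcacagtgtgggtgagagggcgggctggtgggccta
Crabp1, chr9:54764498-54764747, plus strand: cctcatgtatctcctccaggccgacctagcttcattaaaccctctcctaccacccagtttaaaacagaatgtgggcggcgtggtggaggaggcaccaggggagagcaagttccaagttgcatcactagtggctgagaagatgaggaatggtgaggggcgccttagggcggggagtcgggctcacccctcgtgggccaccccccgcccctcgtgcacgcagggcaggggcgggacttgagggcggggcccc
The RefSeq start of Stra8 lies inside a GENCODE exon, so only the 3 marked sites of its window are shown, each with 8 bases on either side. The half-sites begin 194 and 38 bases before the RefSeq start, and the DM-domain core, on the opposite strand, 145 bases before it.
Stra8 half-site, chr6:34920746-34920767: gggtgaaaAGGTCAtcttgctc
Stra8 half-site, chr6:34920902-34920923: ggggtaccAGGTCAgtttttta
Stra8 DM-domain core, chr6:34920795-34920817: aagttgttACAATGTtttcacca

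The libraries differed in size and depth in ways that touch every member. A0 held 8941 cells, A10 9682, B0 4659 and BA10 3778, with a median of 12685, 10948, 4214 and 17989 unique molecular identifiers (UMIs) per cell. The shallowest cell of A0 had 7687 UMIs, that of A10 6716, that of B0 2985 and that of BA10 9013. Levels are UMIs summed over cells and scaled to a total of 1000000 (CPM), given with exact 95% Poisson intervals, and were recomputed over cells of 9013 UMIs or more, of which B0 kept 448. Cells were grouped into 27 clusters without using the members, and clusters were named, without the members, from markers of spermatogonia (SPG-like clusters), of spermatocytes (SPC-like), of spermatids (ST-like) or of somatic cells. Between 31 and 135 cell barcodes were shared by each pair of libraries, and those cells were kept.

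Cells in which these genes would be looked for first were unevenly spread. The SPG-like cluster held 252 cells of B0 (5.41%, binomial interval 4.78 to 6.10%), 13 of BA10 and 1 of A10. It held 0 of 8941 A0 cells, for which a floor of 3 cells is a share of 0.0336%. Its B0 cells carried 2998 to 7702 UMIs, and of the 252 only 1 reached the lowest UMI number of A0, 5 that of A10 and 0 that of BA10. An absence of such cells and their loss to a higher UMI limit in the other libraries therefore cannot be told apart. A second cluster, number 10, was left unnamed because Prss50, Map7d2 and Elavl2, known from germ cells before meiosis, were among its leading genes and went against the spermatid name that its marker score gave. Stra8, Rhox13 and Crabp1 were also among its leading genes but were not used for this. Cluster 10 held 105 A0 cells (median 13245 UMIs), 98 A10 cells (9986.5), 84 BA10 cells (14263) and 6 B0 cells. B0 was mostly somatic: 2930 Leydig-like cells (62.9%), against 5 in A0, 8 in A10 and 128 in BA10. Of these, 2899 B0 cells were in cluster 25, but 80 BA10, 5 A0 and 7 A10 cells were in cluster 21. Cluster 21 was named on a narrow margin, with a Leydig marker score of 0.272 and a next score of 0.227.

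Across the 27 clusters, 8 of the 10 members had their highest level in the SPG-like cluster, and for 5 of those the next highest was cluster 10. How many of all genes peak in the SPG-like cluster was not counted, so this describes the members only. Of the 266 cells of the SPG-like cluster, 252 were from B0. Neurog3 is among the 8 on 5 UMIs. Kit was highest in Leydig-like cluster 25 and Dmrtb1 in SPC-like cluster 18. The map of levels by cluster shows this pattern.

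**Figure D1:**
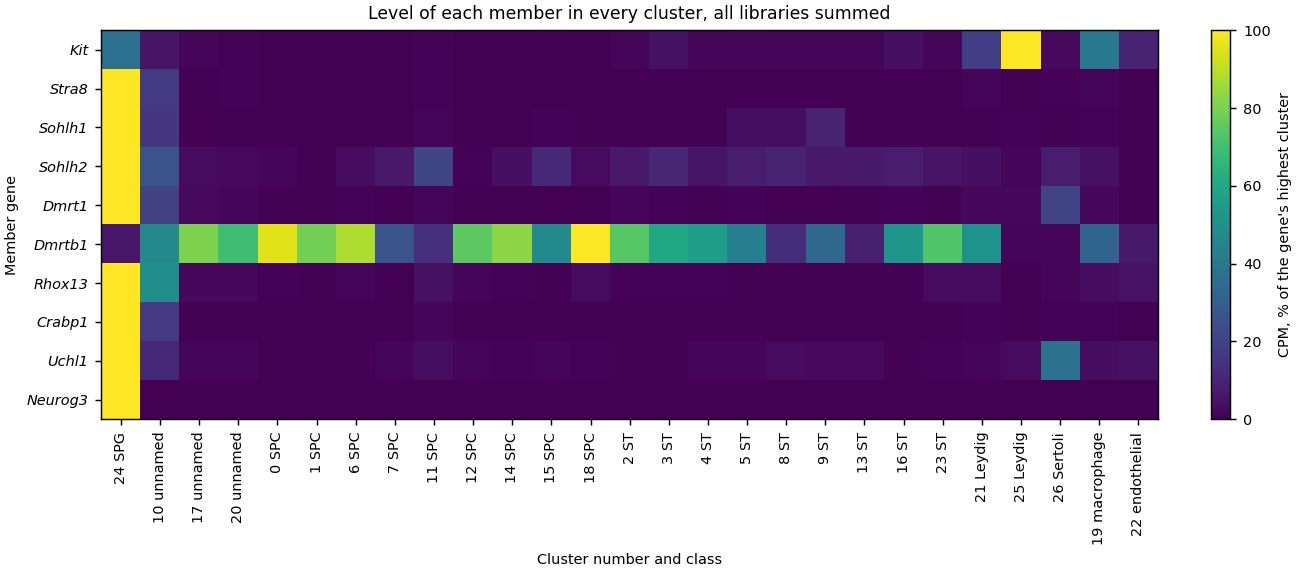
Level of each of the 10 members (rows) in each of 27 clusters (columns, with cluster number and class), all libraries summed, as a percentage of the CPM in that gene's highest cluster. Of the 10 rows, 8 peak in the SPG-like cluster 24, whereas Kit peaks in Leydig-like cluster 25 and Dmrtb1 is spread over spermatocyte-like and spermatid-like clusters.

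Stra8, the gatekeeper of meiotic entry, was measured at 1.27 CPM in A0 (interval 1.10 to 1.47), 1.45 in A10 (1.26 to 1.66), 29.8 in B0 (27.7 to 32.0) and 4.83 in BA10 (4.39 to 5.30). The order was B0, BA10, A10 and A0, and the intervals of the 2 lowest overlapped. In cells of 9013 UMIs or more, B0 was at 3.79 CPM (2.48 to 5.55), which overlapped BA10 at 4.83 (4.39 to 5.30). A library sum cannot tell more cells of a type from more RNA per cell. Of the 754 Stra8 UMIs in B0, 642 (85.2%) lay in SPG-like cells, where 75% of cells had a UMI and the level was 606.5 CPM. Leydig-like cells of B0, which should lack the gene, showed 4.04 CPM and a UMI in 1.13% of cells at a median of 4050 UMIs, against 4015 in the SPG-like cells, so the SPG-like signal stood far above this background. In the control library 135 of 192 Stra8 UMIs (70.3%) came from the 105 cells of cluster 10. In BA10, 138 of 441 UMIs (31.3%) lay in cluster 10 and 61 (13.8%) in 13 SPG-like cells, while 162 (36.7%) were in spermatocyte-like cells. The spermatocyte-like cells were at 2.41 CPM, beside 6.66 in Leydig-like (16 UMIs) and 2.51 in macrophage-like cells (3 UMIs) of BA10. Free RNA and expression were not separated. Outside the SPG-like cluster and cluster 10, Stra8 was at 0.382 CPM in A0, 0.519 in A10, 2.70 in BA10 and 4.38 in B0.

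Crabp1, a cytoplasmic retinoic acid-binding protein, also had B0 highest and BA10 next. Its levels were 0.723 CPM in A0 (0.594 to 0.872), 0.661 in A10 (0.535 to 0.808), 10.5 in B0 (9.32 to 11.9) and 2.82 in BA10 (2.48 to 3.18). Only A0 and A10 overlapped. Over cells of 9013 UMIs or more B0 was at 1.60 CPM (0.80 to 2.87), which overlapped BA10 (2.48 to 3.18). SPG-like cells held 228 of 267 UMIs of B0 (85.4%), and 50.4% of them had a UMI. Stra8 made up 73.8% of the summed Stra8 and Crabp1 UMIs in SPG-like B0 cells, 68.5% in cluster 10 of A0, 75.7% in cluster 10 of A10 and 70.1% in cluster 10 of BA10. In BA10 the same share was 69.1% in SPC-like cluster 18, 60.9% in SPC-like cluster 12 and 61.0% in SPC-like cluster 11, with intervals that all contained 68.5%. Free RNA and expression in those spermatocyte-like cells were not separated.

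Rhox13, an X-linked homeobox gene that is translated in differentiating spermatogonia, was at 1.08 CPM in A0 (0.921 to 1.26), 1.00 in A10 (0.845 to 1.18), 4.46 in B0 (3.68 to 5.37) and 3.11 in BA10 (2.76 to 3.49). B0 and BA10 were both above the other libraries, and their intervals did not overlap each other. Over cells of 9013 UMIs or more B0 was at 2.19 CPM (1.22 to 3.61), which overlapped BA10 (2.76 to 3.49). Its step from the SPG-like cluster to the next was small, from 88.7 CPM to 43.7 CPM in cluster 10, and more cells of cluster 10 (43%) than of the SPG-like cluster (24.4%) had a UMI, at medians of 12446 and 4102 UMIs. In BA10, 140 of 284 Rhox13 UMIs (49.3%) were in spermatocyte-like cells. These were at 2.08 CPM, beside 2.50 in Leydig-like (6 UMIs) and 2.51 in macrophage-like cells (3 UMIs) of BA10. Free RNA and expression were not separated.

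Kit, the receptor whose ligand supports differentiating spermatogonia, was measured at 2.31 CPM in A0 (2.08 to 2.57), 2.35 in A10 (2.10 to 2.61), 100.6 in B0 (96.8 to 104.6) and 2.25 in BA10 (1.95 to 2.58). B0 stood alone and the other three could not be ordered. Among cells of 9013 UMIs or more, B0 was at 7.14 CPM on 49 UMIs. In B0, however, 2200 of 2548 Kit UMIs (86.3%) lay in Leydig-like cells and 73 in SPG-like cells. The SPG-like B0 cells had 69.0 CPM with a UMI in 24.2% of cells, below the 174 CPM and 47.8% of Leydig-like cells.

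Macrophage-like cells of B0 also carried Kit, at 113 CPM and in 33.4% of cells. Against Insl3, a Leydig cell hormone gene, they had 14.3 Kit UMIs per 1000 Insl3 UMIs (12.5 to 16.3), while Leydig-like cells had 14.7 (14.1 to 15.3). In Sertoli-like cells the ratio was 14.9 (4.05 to 38.1), and in spermatocyte-like cells of BA10 it was 15 (10.8 to 20.3), beside 15.8 (13.0 to 19.0) in the Leydig-like cells of that library. The intervals overlapped within each library, so Kit in these classes was not separated from Leydig-derived RNA or mixed droplets. Unnamed clusters of B0 were at 23.6 (15.5 to 34.3). SPG-like B0 cells had 305 Kit UMIs per 1000 Insl3 UMIs (239 to 384), so their Kit was not in the Leydig ratio. Spermatid-like cells of BA10 were also above it, at 51.8 (33.2 to 77.1).

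**Figure D2:**
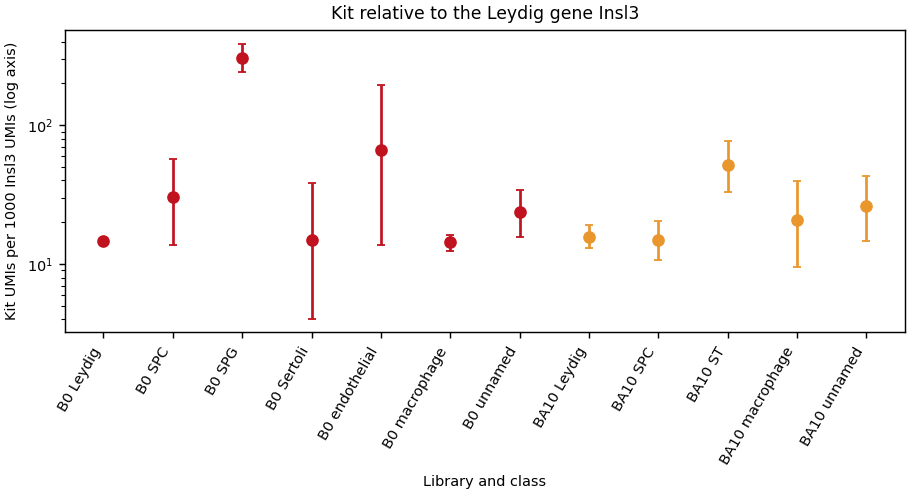
Kit UMIs per 1000 Insl3 UMIs (log axis) in each class of B0 (red) and BA10 (orange) that had at least 50 cells; bars are exact 95% intervals for counting error. Leydig-like (14.7) and macrophage-like (14.3) cells of B0 have the same ratio, and SPG-like cells (305) lie far above it.

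In A0 and A10, Kit had another place. Spermatid-like cells held 315 of 349 Kit UMIs of A0 (90.3%) and 291 of 337 of A10 (86.4%). ST-like cluster 3 was at 7.83 CPM in A0 and 8.22 in A10, with a UMI in 11.6% and 10.4% of cells, and ST-like cluster 16 at 6.21 and 9.14. SPC-like cluster 0, of similar depth (median 11632 UMIs against 12049 in cluster 3), was at 0.257 CPM in A0 and 0.792 in A10. The direction was the same in both libraries. The cluster 0 levels rested on 4 UMIs in A0 (0.0699 to 0.657) and 12 in A10 (0.409 to 1.38), and these intervals overlapped. Cluster 10 held few of the Kit UMIs (16 in A0 and 14 in A10). Its level was 10.45 CPM in A0 (14.3% of cells) and 12.7 in A10 (12.2%), not below these spermatid-like clusters. The spermatid marker gene Prm1 was at 18759 and 16179 CPM in cluster 10 of A0 and A10. In all spermatid-like cells it was at 19373 and 27283 CPM. Spermatid RNA and expression in cluster 10 were not separated. A shortened Kit transcript is known from haploid germ cells, and a 3′ count cannot tell it from the full transcript.

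Sohlh1 encodes a germline factor that with its partner SOHLH2 drives spermatogonial differentiation. Its levels were 2.93 CPM in A0 (2.66 to 3.22), 2.199 in A10 (1.96 to 2.46), 8.14 in B0 (7.06 to 9.33) and 1.69 in BA10 (1.43 to 1.98). B0 was highest, and the intervals of A10 and BA10 overlapped only at their ends. Over cells of 9013 UMIs or more B0 was at 1.17 CPM on 8 UMIs (0.50 to 2.30). This was below A0 (2.67 to 3.24) but overlapped A10 (1.925 to 2.46) and BA10 (1.43 to 1.98). SPG-like cells held 175 of the 206 UMIs of B0 (85.0%), at 165 CPM and with a UMI in 44.4% of cells. Outside the SPG-like cluster and cluster 10, B0 was at 1.12 CPM, and its Leydig-like cells had a UMI in 0.410% of cells.

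Most Sohlh1 of A0 and A10 lay elsewhere: 364 of 442 UMIs in A0 (82.4%) and 262 of 316 in A10 (82.9%) lay in spermatid-like cells. ST-like cluster 9 was at 18.7 CPM in A0 (16.1 to 21.7) and 15.3 in A10 (12.6 to 18.5), with a UMI in 26.0% and 18.6% of cells. ST-like clusters 5 and 8 were between 6.25 and 6.79 CPM in both libraries, whereas SPC-like cluster 7, at about the depth of cluster 9, was at 0.300 and 0.446 CPM. Cluster 9 held 2 cells of BA10. By level, cluster 10 stood above cluster 9, at 30.7 CPM in A0 (34.3% of cells) and 24.55 in A10 (18.4%), on 47 and 27 UMIs. As for Kit, spermatid RNA in cluster 10 was not separated. A10 was below A0 in the library sum (ratio 0.750, interval 0.647 to 0.869). Cluster 9 held 452 cells of A10 and 538 of A0, and the part of cell number in this was not tested.

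Sohlh2 was scarce in each library, at 2.04 CPM in A0 (1.81 to 2.28), 1.65 in A10 (1.45 to 1.87), 3.87 in B0 (3.14 to 4.72) and 1.16 in BA10 (0.951 to 1.40). Of 98 UMIs in B0, 36 (36.7%) lay in SPG-like cells and 36 in spermatocyte-like cells. SPC-like cluster 11 was at 24.1 CPM in its 196 B0 cells (16.9 to 33.4) and at 3.33 CPM in its 431 BA10 cells (2.196 to 4.85), a difference beyond counting error within 1 cluster. Median depth was 4214 UMIs in B0 and 17989 in BA10 over all cells, and its part in this was not tested.

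Dmrt1, a factor of both spermatogonia and Sertoli cells, was at 1.41 CPM in A0 (1.23 to 1.62), 1.18 in A10 (1.01 to 1.37), 13.4 in B0 (12.0 to 14.9) and 2.16 in BA10 (1.87 to 2.48). B0 and BA10 were apart from each other and from the 2 libraries without busulfan. In B0, 187 of 338 UMIs (55.3%) lay in SPG-like cells, with a UMI in 50.4% of them. Sertoli-like B0 cells were at 36.8 CPM with a UMI in 15.9% of cells, against 4.28 CPM and 1.71% in Leydig-like cells. Over all libraries the SPG-like and Sertoli-like clusters were the 2 highest, and DMRT1 is known in both cell types. The second place was not separated: the Sertoli-like cluster was at 35.7 CPM (24.1 to 51.0) and cluster 10 at 33.7 (28.3 to 39.8).

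Uchl1, a ubiquitin hydrolase used as a marker of spermatogonia, also occurred in both. It was at 7.09 CPM in A0 (6.67 to 7.53), 6.74 in A10 (6.32 to 7.17), 46.0 in B0 (43.4 to 48.7) and 10.9 in BA10 (10.2 to 11.6). Only A0 and A10 overlapped. Among cells of 9013 UMIs or more, B0 was at 11.4 CPM (8.99 to 14.2), which overlapped BA10. SPG-like B0 cells had a UMI in 82.9% of cells (561 CPM), and Sertoli-like B0 cells in 41.5% (212 CPM). In A0, 727 of 1069 UMIs (68.0%) came from spermatid-like cells, at low level, for example 17.4 CPM in ST-like cluster 8.

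Dmrtb1 was the member with B0 lowest. It was at 912 CPM in A0 (907.5 to 917), 869 in A10 (864 to 873), 300 in B0 (293 to 307) and 1151 in BA10 (1144 to 1158). All 4 intervals were apart, and BA10 was highest. A UMI was found in 95.7%, 93.9%, 19.9% and 97.6% of cells. Among cells of 9013 UMIs or more, B0 was at 851 CPM and 95.1% of its cells had a UMI. It was not confined to spermatogonia: SPC-like clusters 0, 1, 6, 14 and 18 had it in 100% of cells, at 1181 to 1491 CPM, and the SPG-like cluster in 24.4% of cells at 89.5 CPM. In ST-like clusters it ranged from 1104 CPM (cluster 2) down to 130.5 CPM (cluster 13, led by the protamine genes Prm1 and Prm2). Within B0, SPG-like cells were at 60.5 CPM (20.6% of cells), Leydig-like cells, which should lack the gene, at 27.1 CPM (6.86%) and macrophage-like cells at 102 CPM (10.0%), at medians of 4015, 4050 and 4021.5 UMIs, so the SPG-like level was above that of Leydig-like cells and below that of macrophage-like cells. Sertoli-like cells were at 11.4 CPM (4.92%). Most Dmrtb1 of B0 lay in the 570 cells of unnamed clusters, with 6443 of 7597 UMIs (84.8%) at 957.5 CPM, and SPC-like cells were at 276 CPM. In BA10, Leydig-like cells were at 679 CPM (81.25% of cells) and macrophage-like cells at 1091 CPM (98.3%). Free RNA and expression were not separated there. SPC-like clusters with Tex101 and Gml among their leading genes were lower than the other spermatocyte-like clusters, at 201 CPM in cluster 11, 389 in cluster 7 and 711 in cluster 15.

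Neurog3, a factor of undifferentiated spermatogonia on the way to differentiation, was at the edge of detection. No UMI was found in A0, A10 or BA10, where a floor of 3 UMIs is 0.0199, 0.0209 and 0.0329 CPM. B0 had 5 UMIs in 5 cells (0.197 CPM, 0.0641 to 0.461), and the exact interval of its ratio to A0 starts at 5.46-fold. All 5 cells were SPG-like and carried 3331 to 6753 UMIs, fewer than any cell of A0 (7687 or more) or BA10 (9013 or more). None of the 5 had a Kit UMI, 4 had Dmrt1 and Uchl1, and 4 had UMIs of at least 4 genes of the undifferentiated list below.

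**Figure D3:**
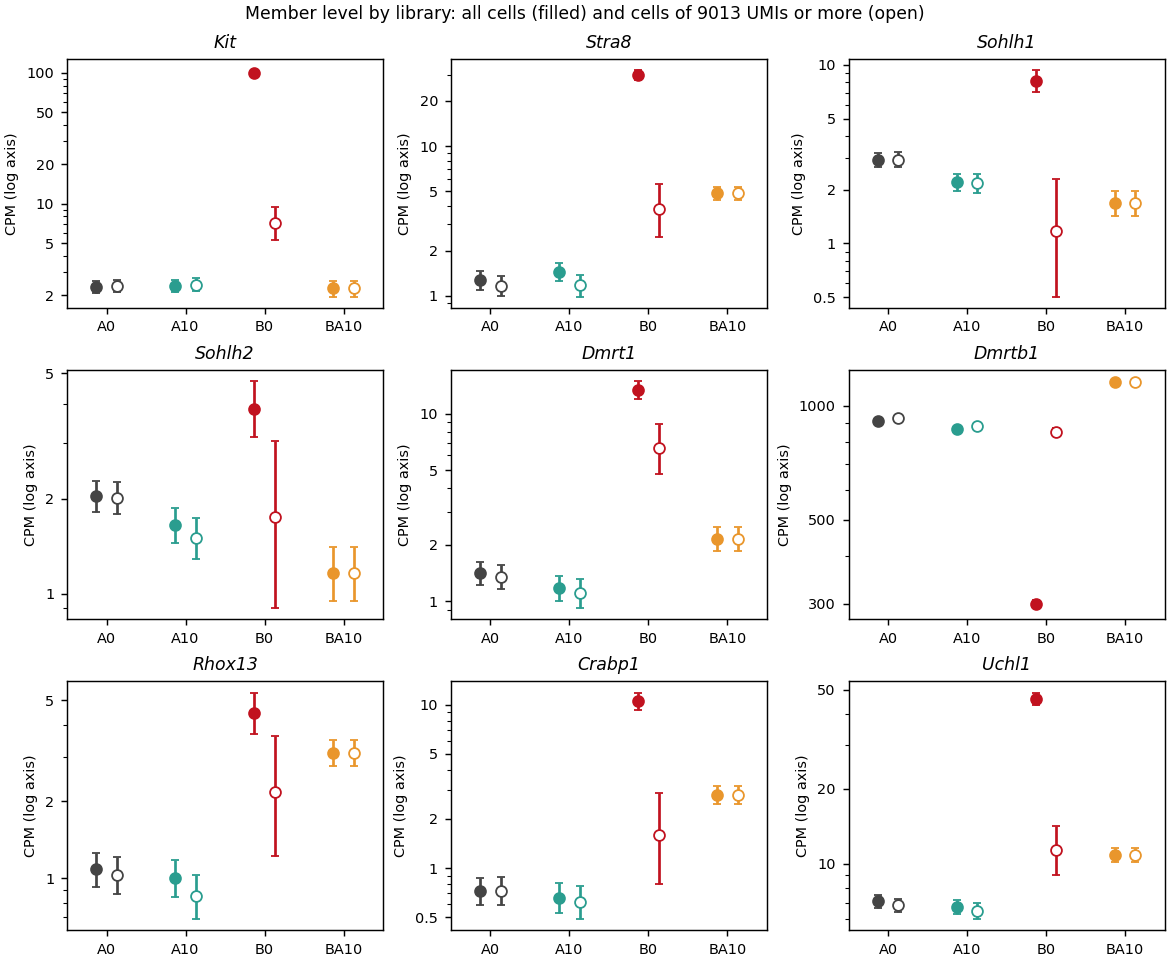
CPM (log axis) of 9 members in the 4 libraries, over all cells (filled) and over cells of 9013 UMIs or more (open); bars are exact 95% Poisson intervals. Neurog3, at 0 in 3 libraries, is left out. Over all cells B0 is highest for 8 of the 9 and lowest for Dmrtb1, and over deep cells its points for Stra8 (3.79), Crabp1 (1.60), Sohlh1 (1.17) and Rhox13 (2.19) lie below those of BA10, on 26, 11, 8 and 15 UMIs. For each of these genes the intervals of B0 and BA10 overlap.

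Between libraries, a member was counted as different when the log2 ratio of CPM, with 1 CPM added, reached 1 in size (2-fold). For A10 over A0, 0 of 10 members were 2-fold higher and 0 lower, against 0.0326% and 0.0652% of all genes. The largest differences were in Sohlh1 (log2 ratio -0.30) and Sohlh2 (-0.20). The interval of the ratio without added CPM was below 1 for these and, at a ratio of 0.952, for Dmrtb1.

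For B0 over A0, 7 of 10 members were at least 2-fold higher, where 36.3% of all genes were, and 1 was lower, where 15.1% were. The 7 were Kit (log2 ratio 4.94), Stra8 (3.76), Crabp1 (2.74), Dmrt1 (2.57), Uchl1 (2.54), Rhox13 (1.39) and Sohlh1 (1.22, but 0.90 when centred on the median of all genes). Sohlh2 was at 0.68 and Neurog3 at 0.26 on the same scale, and Dmrtb1 was at -1.60. Without added CPM, Kit was 43.5-fold higher (38.9 to 48.8) and Stra8 23.4-fold (19.9 to 27.6). The median of the 10 was 1.97, beside 0.31 for all genes. Over cells of 9013 UMIs or more, 3 members were 2-fold higher (Kit 1.28, Stra8 1.14, Dmrt1 1.69) and 0 lower, beside 17.6% and 6.96% of all genes. Sohlh1 then had a log2 ratio of -0.86 and Dmrtb1 of -0.12. No SPG-like B0 cell reached that limit. With 10 CPM added in place of 1, 4 members were higher, beside 18.3% of all genes. With somatic-like cells left out, 0 were lower, beside 7.49%, and the Kit log2 ratio was 1.90. Stra8 was then at 4.98. Over germ-like cells only, a set without the unnamed cluster 10 (135 of 192 Stra8 UMIs of A0) but with the SPG-like cells, 9 were higher, beside 39.4%, with Stra8 at 7.37.

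For BA10 over B0, 1 member was at least 2-fold higher (Dmrtb1, log2 ratio 1.94) and 7 were lower, where 11.1% and 33.2% of all genes were. The 7 were Kit (-4.97), Stra8 (-2.40), Dmrt1 (-2.18), Uchl1 (-1.99), Sohlh1 (-1.77), Crabp1 (-1.60) and Sohlh2 (-1.17, but -0.89 when centred). Rhox13 was at -0.41. This comparison shares B0 with the previous one, so its values are not separate information. Over cells of 9013 UMIs or more, 0 members were 2-fold higher and 2 lower, Kit (-1.33) and Dmrt1 (-1.26), beside 0.76% and 11.5% of all genes. Stra8, Sohlh1, Rhox13 and Crabp1 changed sign to 0.28, 0.31, 0.37 and 0.55, but for each the level intervals of B0 and BA10 overlapped. With 10 CPM added 3 were lower, beside 15.7%, and with somatic-like cells left out 0 were higher, beside 1.1%. Rhox13 was then at -1.47. In the germ-like cells without cluster 10, 9 were lower, beside 35.6%, with Rhox13 at -3.06.

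For BA10 over A0, 2 of 10 members were 2-fold higher and 0 lower, beside 10.6% and 11.7% of all genes. These were Stra8 (log2 ratio 1.36, 3.79-fold without added CPM, 3.20 to 4.52) and Crabp1 (1.15, 3.90-fold, 3.10 to 4.92). Rhox13 stood just under the limit at 0.98 (2.88-fold without added CPM, 2.37 to 3.51). Over cells of 9013 UMIs or more the values were 1.43, 1.14 and 1.02, which made 3 members higher, beside 10.3% of all genes. With 10 CPM added 0 were higher, beside 2.39%, and so it was over genes of at least 10 CPM, beside 15.2%. Stra8, Crabp1 and Rhox13 were under 10 CPM in both BA10 and A0. Neither setting could therefore count them as 2-fold higher, and neither bears on their ratios. Sohlh1 (-0.55) and Sohlh2 (-0.49) went the other way, with ratio intervals below 1, and the Kit ratio was 0.970 (0.813 to 1.16). Leydig-like cells held 112 of the 205 Kit UMIs of BA10, and over germ-like cells only the Kit log2 ratio was -0.75.

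In cluster 10, which held A0, A10 and BA10 cells in like number, the members were compared within 1 cluster. The cells still differed between libraries: Id4 was in 15.2% of them in A0 and 47.6% in BA10. The protamine gene Prm1 was at 18759 CPM in A0, 16179 in A10 and 907 in BA10. All spermatid-like cells of these libraries were at 19373, 27283 and 3022.5 CPM. Prm1 had a UMI in 100%, 100% and 41.7% of the cluster 10 cells. The part of these differences in the ratios below was not tested. Stra8 was at 88.2 CPM in A0 (74.0 to 104), 116 in A10 (97.1 to 138) and 99.8 in BA10 (83.8 to 118). Rhox13 was at 42.5, 46.4 and 42.7 CPM and Crabp1 at 40.5, 37.3 and 42.7 CPM in the same order. The A10 over A0 ratio of Stra8 had an interval of 1.03 to 1.69. By share of cells the direction was opposite, with Stra8 in 49.5% of A0 cells and 43.9% of the shallower A10 cells. Although these genes were higher in the BA10 library, within these cells the BA10 over A0 ratios had intervals that included 1 (0.886 to 1.44 for Stra8, 0.725 to 1.53 for Crabp1 and 0.694 to 1.45 for Rhox13). Kit had 16 UMIs in A0 and 8 in BA10, a ratio interval of 0.205 to 1.37.

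With 10 CPM added, and over genes of at least 20 UMIs, 0 members differed 2-fold between A10 and A0 in cluster 10, beside 0.617% of genes higher and 0.166% lower. Between BA10 and A0 only Dmrtb1 did, at 999 CPM (947 to 1053) against 489 (455 to 526), a log2 ratio of 1.01, beside 14% of genes higher and 13.9% lower. Dmrtb1 was at 612 CPM in A10 (566.5 to 660), between these, with an A10 over A0 ratio interval of 1.13 to 1.39. By share of cells the direction was opposite, with Dmrtb1 in 95.2% of A0 cells and 88.8% of the shallower A10 cells. Macrophage-like cells of BA10 were at 1091 CPM, so the BA10 level of Dmrtb1 in cluster 10 was not above that class. Sohlh2 rested on 6 UMIs in A0 (3.92 CPM) and 17 in BA10 (12.3 CPM), with a ratio interval of 1.18 to 9.71.

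**Figure D4:**
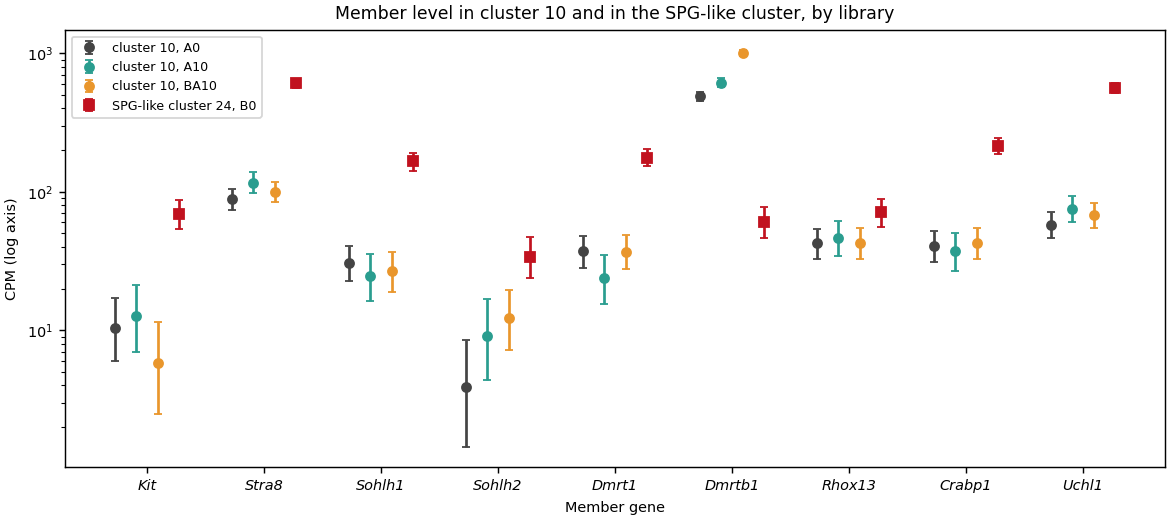
CPM (log axis) of 9 members in cluster 10 of A0, A10 and BA10 (circles) and in the SPG-like cluster of B0 (squares); bars are exact 95% Poisson intervals. The 3 circles of Dmrtb1 span 489 to 999 CPM and those of Kit, with 8 to 16 UMIs each, 5.79 to 12.7 CPM, and the B0 squares lie above them for each gene except Dmrtb1.

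Cells that carried several members at once were next counted. UMIs of 3 or more members were found in 7.91% of BA10 cells and 5.84% of B0 cells, against 3.32% in A0 and 2.21% in A10. In the SPG-like cells of B0 the share was 80.6% (203 of 252), with a median of 4 members and up to 7. In cluster 10 it was 72.4% in A0, 55.1% in A10 and 81.0% in BA10, while Leydig-like B0 cells of like depth to the SPG-like ones had 0.990%. Dmrtb1, present in most cells, counts in these shares: without it they were 0.783%, 0.444%, 4.92% and 3.10% for A0, A10, B0 and BA10, 78.2% in SPG-like B0 cells, and 49.5%, 35.7% and 58.3% in cluster 10 of A0, A10 and BA10. With every cell thinned to 5000 UMIs, which left out 3235 cells of B0, the shares in the same order were 0.626%, 0.506%, 4.85% and 1.99%, and B0 was then above BA10. Over cells of 9013 UMIs or more B0 was at 7.14% and BA10 at 7.91%.

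**Figure D5:**
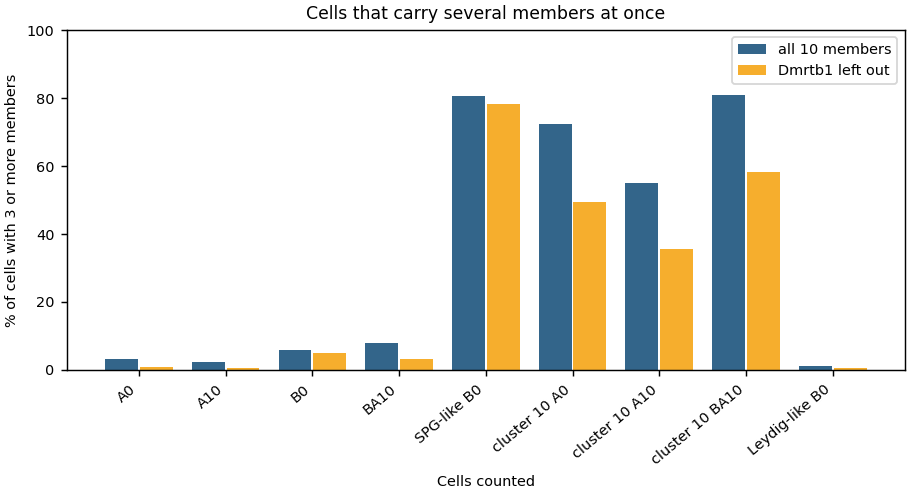
Percentage of cells with UMIs of 3 or more members, with all 10 members (blue) and with Dmrtb1 left out (yellow), in the 4 libraries, in SPG-like B0 cells, in cluster 10 by library and in Leydig-like B0 cells. Bars start at 0; SPG-like B0 cells stand at 80.6% and 78.2%, and Leydig-like B0 cells at 0.990% and 0.580%.

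Within the 252 SPG-like B0 cells, Kit was found mostly together with Stra8: 55 of 61 cells with Kit had Stra8 (90.2%), against 134 of 191 without Kit (70.2%). Crabp1 was in 39 of the 61 (63.9%) and in 46.1% of the others. Stra8 with Crabp1 gave the widest gap: 111 of 189 cells with Stra8 had Crabp1 (58.7%), and 16 of 63 without it (25.4%). Cells with Stra8 were also deeper (median 4148 against 3634 UMIs), which raises every joint count, and its part was not tested. A median of 2 genes of the undifferentiated list was detected in cells with Stra8 and in cells without it, and none was detected in 20.1% and 22.2% of them. In cluster 10 of A0, A10 and BA10, Stra8 was in 53.3%, 33.3% and 42.9% of cells with Kit (15, 12 and 7 cells). It was in 48.9%, 45.35% and 66.2% of those without Kit. Crabp1 was in 42.3%, 16.3% and 42.6% of cluster 10 cells with Stra8 and in 20.75%, 27.3% and 36.7% of the others.

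The genes upstream and downstream were taken as 3 lists. Of 15 genes of undifferentiated spermatogonia, 14 were in the table (Nanos2 was not analysed here), and 7 were 2-fold higher and 0 lower in B0 over A0, beside 36.3% and 15.1% of all genes, with a median log2 ratio of 1.01. The largest were Etv5 (30.6 against 0.404 CPM), Zbtb16 (31.7 against 0.802) and Foxo1 (17.9 against 0.763), factors known from stem cell maintenance, whereas Gfra1, the GDNF receptor, was at -0.91 (0.908 against 2.59 CPM) and Id4 at -0.44, short of 2-fold. SPG-like cells held 23 of 776 Etv5 UMIs of B0, 148 of 802 of Zbtb16 and 113 of 453 of Foxo1, so most UMIs of these genes lay in other cells. In BA10 over A0, Utf1 (log2 ratio 1.51), Egr4 (1.46) and Id4 (1.07) made the 3 genes 2-fold higher, with 0 lower, beside 10.6% and 11.7% of all genes. For A10 over A0 the list gave 0 in either direction.

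Several undifferentiated genes also served to name the SPG-like cluster, so their presence there is no finding. Within its B0 cells, Zbtb16 was in 37.3% of cells (140 CPM), Foxo1 in 35.3% (107 CPM), Sall4 in 27.8% and Gfra1 in 5.16%. In cluster 10 of A0 Zbtb16 was in 16.2% (14.4 CPM) and Sall4 in 7.62%, in deeper cells. Foxo1 was in 19.0% of those cells (17.0 CPM). By share of cells others went the other way: Gfra1 was in 9.52% of cluster 10 in A0, although lower in CPM (6.53 against 13.2). Id4 was in 13.1% of SPG-like B0 cells and in 15.2% and 47.6% of cluster 10 in A0 and BA10. Utf1 was in 2.38%, 3.81% and 20.2% in the same order.

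Of 16 genes of KIT ligand and of retinoic acid supply and reception, all were in the table. In B0 over A0, 10 were 2-fold higher and 1 lower, beside 36.3% and 15.1% of all genes, with a median of 1.55. In BA10 over B0, 0 were higher and 9 lower, beside 11.1% and 33.2%. Aldh1a1, a retinaldehyde dehydrogenase that makes retinoic acid, was at 3.58 CPM in A0, 4089 in B0 and 96.7 in BA10. Kitl, the KIT ligand of Sertoli cells, was at 0.325, 66.1 and 1.48 CPM in the same libraries. Rdh10, a retinol dehydrogenase, was lower in B0 (5.69 CPM) and BA10 (2.34) than in A0 (21.6). Aldh1a1 is among the leading genes of Leydig-like cluster 25, and its library level moved with the number of Leydig-like cells (5, 2930 and 128), whose part was not tested.

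Of 15 genes of entry into meiosis, all in the table, 5 were 2-fold higher and 3 lower in B0 over A0, close to the 36.3% and 15.1% of all genes, with a median of 0.25 beside 0.31 for all genes. Ccnd2, a cyclin of spermatogonial division, was at 38.6 against 0.332 CPM, Dazl at 80 against 22.5 and Prdm9, which marks recombination sites, at 6.20 against 1.27. The meiotic cohesin genes Rec8 (9.24 against 30.5 CPM), Stag3 (35.5 against 88.3) and Smc1b (135 against 309) were lower. In BA10 over A0, Spo11, which makes the meiotic breaks, was higher (58.1 against 27.6 CPM) while Tex15 (8.71 against 41.0) and Rec8 (13.9 against 30.5) were lower.

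Likeness of pattern was measured as Pearson's r of log2 CPM, with 1 CPM added, over the 27 clusters, among 14006 genes. Clusters share libraries and depth, so r is a description. Stra8 was most like Map7d2 (0.98), Crabp1 (0.98) and Gm7972 (0.96), and Crabp1 most like Stra8, Map7d2 (0.97) and Xlr4b (0.97). Among the members themselves, Stra8 and Crabp1 were the closest pair, followed by Crabp1 with Rhox13 (0.91) and Stra8 with Dmrt1 (0.90). Sohlh1 was most like Recql4, Pramef12 and Dusp2 (0.95 to 0.96), and Sohlh2 most like Cecr2 (0.90), Sh3bgrl2 and Gm10439. Dmrtb1, whose pattern was that of spermatocytes and spermatids, was most like 1700020D05Rik, 4931417E11Rik and Ccdc83 (each 0.99). Kit was most like Bnc2, Snhg11 and Cobll1 (0.92 to 0.94). Dmrt1 was most like Xlr4b, Neto2 and Yy2 (0.93 to 0.94), Rhox13 most like Cdca7 (0.92), Crabp1 and Pdxp, and Uchl1 most like Hmgb3, Ttll12 and Mex3a (0.91 to 0.92).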

How the data were processed

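Libraries were made with 10x Genomics 3′ chemistry (kit V2) from testis cells. The submitters' processing notes name Cell Ranger 2.2.0 and mm10. The methods of the study state that 5000 cells were forced per library, which the cell numbers here differ from, and that cells with under 200 genes and genes in under 3 cells were removed before analysis in Seurat. The deposited values are natural log values, ln(1 + share of the cell's UMIs scaled to 10000). Dividing by the lowest value of each cell gave whole UMIs for 100% of values (tolerance 0.001), and all levels were computed from those counts. Every cell had at least 912 genes, and 17546 of 18419 symbols matched GENCODE M21. The table lists 0 mitochondrial genes.

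The UMIs per cell were scaled and log-transformed; 2000 variable genes without the members gave 30 principal components, 15 neighbours and Leiden clusters at resolution 1 (scanpy 1.11.5, Python 3.11.15). Clusters took the class whose markers were highest on average, each marker as a share of its highest cluster. They stayed unnamed when leading genes went against the class, when under 3 own markers were in at least 10% of cells or when UMIs were low; a rule that at least 2 of 10 leading genes of another stage or of stroma end a name was set after the data were seen. Doublets were kept: Scrublet (expected rate 6%) called 5.48%, 3.31%, 1.10% and 1.64% of cells in A0, A10, B0 and BA10, and leaving them out was an alternative.

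Counting intervals are exact at 95% (Poisson for levels, binomial for shares, conditional binomial for ratios). Simulated data were used to check the log2 ratios of genes of at least 10 CPM, and not the intervals. UMIs are molecules, but intervals cover counting error only. A library, class or cluster value is shown where at least 50 cells or a stated count lie behind it. Named genes were the members, up to 3 largest rises and falls per list among genes of at least 100 UMIs, and the 3 genes most like each member of at least 200 UMIs. The members and lists were chosen with earlier results of these data known. The values of 1 list gene that this rule names are not reported here. Alternatives were other added CPM values, the common UMI limit of 9013, thinning to 5000 UMIs, means over cells, centring on the median gene, germ-like cells only, other cluster settings and other detection rules.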

Additional observations from a re-analysis of the deposited data

Results flagged for a closer look

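The log2 ratio of Dmrtb1 with AOS had opposite signs without and with busulfan, but without busulfan it was small and short of 2-fold. The log2 ratio was -0.07 for A10 over A0 and 1.94 for BA10 over B0, a difference of 2.01, and each group was 1 library, so the difference was not tested. Over cells of 9013 UMIs or more the ratios were -0.07 and 0.44. Leydig-like cells made up 62.9% of B0 and 3.39% of BA10. With somatic-like cells left out, a choice made after seeing the data, the BA10 over B0 ratio was 0.68. The BA10 over B0 ratio was larger as a mean over cells (3.00), over germ-like cells only (2.50) and centred on the median of all genes (2.22). Within cluster 10 the A10 over A0 ratio was above 1 (612 against 489 CPM, interval 1.13 to 1.39), but the share of cells with Dmrtb1 was lower in A10 (88.8% against 95.2%). Cluster 10 held 6 B0 cells, so no BA10 over B0 ratio was formed and the directions could not be compared there.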

How the results depend on the processing

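No paired analysis was possible because each group is 1 library, and for the same reason no replicate could be left out. Adding 10 CPM in place of 1 gave 4 members 2-fold higher for B0 over A0, 3 lower for BA10 over B0 and 0 higher for BA10 over A0, and members of at least 10 CPM alone also gave 0 for the last. A gene under 10 CPM in both libraries cannot be counted at either setting. For BA10 over A0 this held for Stra8, Crabp1 and Rhox13. Over cells of 9013 UMIs or more, 3 members were higher and 0 lower for B0 over A0 and 0 higher and 2 lower for BA10 over B0. There the log2 ratios of Sohlh1 (-0.86) and Sohlh2 (-0.13) for B0 over A0 changed sign, as did Stra8 (0.28), Sohlh1 (0.31), Rhox13 (0.37) and Crabp1 (0.55) for BA10 over B0. The level intervals overlapped for each of the genes that changed sign in BA10 over B0, and for Sohlh2 in B0 over A0. Centring on the median of all genes turned Neurog3 to -0.052 and 0.027 in the 2 comparisons and took Sohlh1 (0.90, B0 over A0) and Sohlh2 (-0.89, BA10 over B0) below 2-fold. As a mean over cells Sohlh2 was at -0.97 for BA10 over B0. With somatic-like cells left out, chosen after seeing the data, 0 members were lower for B0 over A0 and 0 higher for BA10 over B0, and for B0 over A0 the log2 ratios of Kit, Stra8 and Sohlh1 were 1.90, 4.98 and 2.35, with Rhox13 at -1.47 for BA10 over B0. Over germ-like cells only, which leaves out the unnamed cluster 10 but keeps the SPG-like cells, 9 were higher for B0 over A0 and 9 lower for BA10 over B0, with Stra8 at 7.37 and Sohlh1 at 4.06 for B0 over A0 and Rhox13 at -3.06 for BA10 over B0. Kit for BA10 over A0 was -0.75 there and 0.42 as a mean over cells.

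The shares of cells with 3 or more members in A0, A10, B0 and BA10 were 0.626%, 0.506%, 4.85% and 1.99% after thinning to 5000 UMIs, 0.324%, 0.217%, 1.85% and 1.56% when 2 UMIs counted as detection, and 1.68%, 1.11%, 4.16% and 5.08% without Uchl1. Without Dmrtb1, chosen after seeing the data, they were 0.783%, 0.444%, 4.92% and 3.10%. At the common limit A10 was at 2.66% and B0 at 7.14%. SPG-like cells held 15.9% of the member UMIs of B0 (65.9% without Kit and Dmrtb1) and 0 at the common limit. Clustering at resolution 0.5 gave no SPG-like cluster and so no value; at resolution 2, with 1000 variable genes or with the members kept, that share stayed within counting error. Leaving out Scrublet doublets moved no value beyond counting error. Neurog3, with 5 UMIs in all, and Sohlh2 rest on few counts.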
